A study of Homo sapiens with 24 samples.

Results

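Newly made RNA was compared between 2 lines with different degron-tagged Integrator subunits in the same human cell background, 3 h after the degrader was added. The quantity examined was a difference of responses. It was the log2 change of a gene between 3 h and 0 h of dTAG13 in the INTS11-dTAG line, minus the change over the same interval in the INTS8-dTAG line that also expressed INTS8-N211del. All 8 libraries of those 4 groups in batch 2 were used, 2 per group, out of 24 libraries in the series. Of 7223 genes listed in these libraries, 6950 had a mean of at least 0.1 over the batch and were tested.

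DLD1 is an established human cell line from a colorectal adenocarcinoma. TT-seq marks newly made RNA with a short pulse of a uridine analogue, and only the marked, fragmented RNA is purified for sequencing. The first pair of groups was the INTS11-dTAG line after 3 h and at 0 h of dTAG13, with the dTAG tag knocked in at INTS11. The second pair was the INTS8-dTAG line with ectopic INTS8-N211del, after 3 h and at 0 h of dTAG13, with the tag knocked in at INTS8. All 4 groups therefore carried a tagged Integrator subunit, and the 3 h groups of both lines had received the same compound. Libraries of both lines at 1 h of dTAG13 belong to the same batch, while batch 1 held both lines with dTAG13 or with its vehicle, DMSO, for 3 h.

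Integrator is a large complex that acts on RNA polymerase II near promoters. Its endonuclease, of which INTS11 is the catalytic subunit, cuts nascent RNA and ends transcription early at many genes. The complex also carries the phosphatase PP2A, held in part through INTS8, which removes phosphates from the polymerase and its pausing factors. Genes that respond quickly to stimuli are well known to be restrained by this complex. The comparison sets dTAG13 treatment of tagged INTS11 beside that of tagged INTS8 with ectopic INTS8-N211del present. The labels do not say what INTS8-N211del does, so which function the second line lost is not known here.

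Several features limit these groups as a model. The lines are separate engineered lines, no untagged line was given dTAG13, and the time course lacked a vehicle arm. Effects of the compound, of handling and of time therefore cannot be told apart from loss of the subunit. The tag acts on protein, so RNA levels give no check that the subunits were lost, and INTS11, INTS8 and PPP2CA, the gene of the PP2A catalytic subunit, were not analysed here. The replicates are biological duplicates per the labels, which do not say whether they were separate cultures, so p-values measure the spread between these libraries. The 8 libraries held 8710125 to 10806744 whole-number units each, the closest quantity to reads that the deposited values contain. Of 11 colorectal epithelial markers 9 were listed, with a summed level of 2819 to 3046 FPKM (the deposited length-scaled values) in the 8 libraries. KRT8 and KRT18 made up most of that sum, KRT20 was at 0 in 7 libraries, and CEACAM5 was at 0 in 2 and reached at most 0.184 FPKM. No leukocyte or endothelial marker was listed, and the fibroblast gene COL1A1 reached at most 0.204 FPKM. In bulk libraries fewer cells of a type and less RNA per cell cannot be told apart.

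Across the genome the 2 responses differed widely. The difference of responses passed the test (limma, Benjamini-Hochberg adjusted p under 0.05) at 3540 genes, 50.9% of those tested. It was lower in the INTS11 line at 2487 genes, 35.8%, and higher at 1053 genes, 15.2%. At 1.5-fold or more, 762 genes (11.0%) were lower and 315 genes (4.53%) were higher. The median gene differed by −0.11 on the log2 scale, with an interquartile range of −0.36 to 0.15 and a median standard error of 0.08. That median itself varied with an SD of 0.04 when 1 library was taken per group. When each library was centred on its own median, 1752 genes (25.2%) were lower and 1993 (28.7%) were higher. The surplus of lower genes therefore rests on the deposited scaling. Centring removes any shift common to all genes by construction, so it cannot tell which scaling is right. No gene was called in opposite directions with and without centring. At 1.5-fold or more the centred counts were 494 lower and 509 higher. In 3 of the 4 groups, all but the N211del line at 0 h, a chi-square test of the whole-number units found no difference between the 2 replicates beyond the sampling noise (chi-square per gene of 1.01 to 1.02). They were kept as 2 because the labels call them biological duplicates, and counting each such pair as 1 sample left 1643 genes lower and 599 higher.

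As deposited, more genes were higher than lower in each line. The INTS11 line had 2503 genes higher after 3 h (36.0%) and 1344 lower (19.3%), with 860 higher (12.4%) and 72 lower (1.04%) at 1.5-fold or more. In the N211del line 3454 genes were higher (49.7%) and 956 lower (13.8%), with 1333 higher (19.2%) and 109 lower (1.57%) at 1.5-fold or more. The median response was 0.08 for INTS11 and 0.18 for N211del. These counts also moved with centring, which gave 2148 higher and 2436 lower genes for N211del, so that the direction of the surplus there flips with the scaling.

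**Figure D1:**
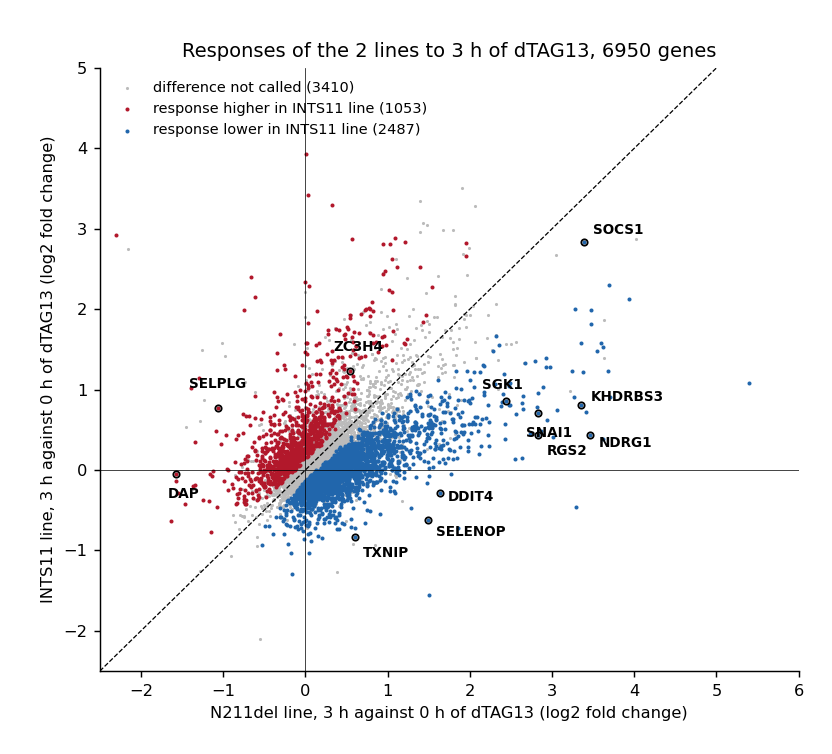
Log2 fold change of each tested gene between 3 h and 0 h of dTAG13, in the INTS11 line on the vertical axis and in the N211del line on the horizontal axis. Points are genes, coloured by the call on the difference, and the dashed line marks equal responses; 2487 genes called lower in the INTS11 line lie below it and 1053 called higher lie above it.

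The called genes were sorted by what each line did on its own. Of the 2487 genes with a lower response in the INTS11 line, 931 were higher in the N211del line and not called in the INTS11 line. A further 644 were higher in both lines but less so in the INTS11 line, 433 were lower in the INTS11 line and higher in the N211del line, and 388 were lower in the INTS11 line and not called in the N211del line. The remainder were 51 genes lower in both lines and 40 called in neither response. Among the 1053 genes with a higher response in the INTS11 line, 352 were higher there and not called in the N211del line, and 276 were not called there and lower in the N211del line. Both lines were higher at 168 of them and both lower at 84, while 146 were higher in the INTS11 line and lower in the N211del line, and 27 were called in neither response.

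The most strongly lower responses belonged to genes that the N211del line raised several-fold. NDRG1, a stress- and hypoxia-responsive gene, had 20.7 and 20.5 FPKM at 3 h against 15.3 and 15.1 at 0 h in the INTS11 line. The N211del line had 24.64 and 25.01 FPKM at 3 h against 2.005 and 2.331 at 0 h. The lines thus ended near the same level from very different starts, and no pair of groups overlapped. The difference of responses was −3.02 ± 0.08 (log2 ± SE, adjusted p = 1.31e-07), made of a response of 0.44 for INTS11 and of 3.46 for N211del.

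RGS2 speeds the shut-off of G protein signalling, and its starting levels in the lines lay closer together. It had 24.8 and 22.6 FPKM at 3 h against 16.6 and 18.4 at 0 h in the INTS11 line. The N211del line had 65.0 and 65.1 FPKM at 3 h against 8.27 and 9.84 at 0 h, the highest of the 4 groups and the lowest. The difference was −2.40 ± 0.11 (adjusted p = 9.09e-07).

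KHDRBS3, which encodes an RNA-binding splicing regulator, had nearly the same start in both lines. Its levels were 1.67 and 1.81 FPKM at 3 h against 0.914 and 0.988 at 0 h in the INTS11 line. They were 8.60 and 8.65 FPKM at 3 h against 0.719 and 0.792 at 0 h in the N211del line. Both lines raised it, the INTS11 line 1.75-fold and the N211del line 10.2-fold, a difference of −2.55 ± 0.12 (adjusted p = 7.20e-07).

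CTSV, a lysosomal cysteine protease gene, moved in the N211del line alone by the test. It had 4.597 and 4.876 FPKM at 3 h against 4.04 and 4.59 at 0 h in the INTS11 line (log2 0.13, adjusted p = 0.19). The N211del line had 20.5 and 19.0 FPKM at 3 h against 3.13 and 3.44 at 0 h. The difference was −2.42 ± 0.12 (adjusted p = 9.11e-07). MARCHF3, a membrane-bound ubiquitin ligase gene, had 2.46 and 2.64 FPKM at 3 h against 1.93 and 1.67 at 0 h in the INTS11 line. The N211del line had 12.9 and 12.8 FPKM at 3 h against 1.56 and 1.82 at 0 h, a difference of −2.37 ± 0.13.

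The other genes with the largest lower responses had low levels at 0 h in the N211del line. NATD1 had a difference of −2.60 ± 0.14, with 6.30 and 5.75 FPKM at 3 h for INTS11 and 11.1 and 12.3 for N211del. FGFR3, a fibroblast growth factor receptor gene, had a difference of −3.23 ± 0.38, with 1.05 and 1.11 FPKM at 3 h for INTS11 and 2.32 and 1.96 for N211del. RAET1G, which encodes a stress ligand of natural killer cells, had a difference of −2.80 ± 0.30, and INSL4, a relaxin-family hormone gene, one of −2.45 ± 0.54, whose call was lost with pairs averaged (adjusted p = 0.0678). MAFA, a transcription factor gene, had 1.270 and 1.296 FPKM at 3 h against 1.12 and 0.25 at 0 h in the INTS11 line, and 4.51 and 3.72 at 3 h in the N211del line, where both 0 h libraries list it at 0, so no fold is given.

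The 114 genes called higher by at least 1 on the log2 scale had a median level of 1.48 FPKM and a median length of 14708 bp. The 227 called lower by as much had a median level of 7.34 FPKM and a median length of 26852 bp, beside 15.3 FPKM and 32066 bp for all tested genes. The median responses of the higher set were 1.39 for INTS11 and 0.02 for N211del, and those of the lower set were 0.32 for INTS11 and 1.67 for N211del.

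SELPLG, the P-selectin ligand gene, moved in opposite directions. The INTS11 line had 4.11 and 3.63 FPKM at 3 h against 2.35 and 2.10 at 0 h, and the N211del line had 2.295 and 2.856 at 3 h against 5.47 and 5.48 at 0 h. The difference was 1.84 ± 0.16 (adjusted p = 2.41e-05). NOTCH3, a Notch receptor gene, had 2.37 and 1.95 FPKM at 3 h against 1.89 and 1.47 at 0 h in the INTS11 line, a change that did not pass the test (adjusted p = 0.057). It had 1.32 and 1.11 FPKM at 3 h against 3.04 and 3.42 at 0 h in the N211del line, where it fell, and the difference was 1.69 ± 0.20.

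DAP, a gene linked to regulated cell death, was picked after its values were seen because it had a high level and a small error. It had 46.1 and 45.5 FPKM at 3 h against 48.3 and 46.6 at 0 h in the INTS11 line, and 10.7 and 9.88 at 3 h against 30.6 and 31.1 at 0 h in the N211del line. The response passed the test for N211del and not for INTS11 (adjusted p = 0.33), and the difference was 1.53 ± 0.06 (adjusted p = 5.64e-07). Under centring DAP was called lower for INTS11 as well.

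SKIDA1 and SLC25A45, a mitochondrial carrier gene that overlaps FRMD8, rose in both lines and more in the INTS11 line. SKIDA1 had 3.69 and 3.67 FPKM at 3 h against 0.642 and 0.276 at 0 h in the INTS11 line, and 2.22 and 3.05 at 3 h against 1.05 and 1.10 at 0 h in the N211del line. The differences were 1.63 ± 0.38 for SKIDA1 and 1.86 ± 0.37 for SLC25A45. NRSN2 (2.25 ± 0.54) rose in the INTS11 line and was not called in the N211del line, and UGT1A6 (1.57 ± 0.17) was near silent in the INTS11 line, at 0.506 and 0.573 FPKM at 3 h, and overlaps other UGT1A genes.

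The remaining large positive differences were less stable. KISS1 (2.41 ± 0.70), KRT13 (1.78 ± 0.51) and PROB1 (1.84 ± 0.61) each lost the call when single libraries were left out. Those were INTS11 3 h replicate 1 or N211del 0 h replicate 2 for KISS1, with adjusted p of 0.0621 and 0.0541, and either replicate 1 of the INTS11 line for KRT13, with adjusted p of 0.0552 and 0.0571. PROB1 lost it without any 1 of 6 libraries, all but INTS11 0 h replicate 1 and N211del 3 h replicate 1, at adjusted p of 0.0601 to 0.1202, and was 1.10 without INTS11 0 h replicate 2. NPPB was at 0 in 3 of the 4 INTS11 libraries, 0.390 FPKM being its only value there, so no fold is given for it. Its call was lost without either INTS11 0 h replicate, N211del 0 h replicate 1 or N211del 3 h replicate 2 (adjusted p 0.0645 to 0.0917).

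**Figure D2:**
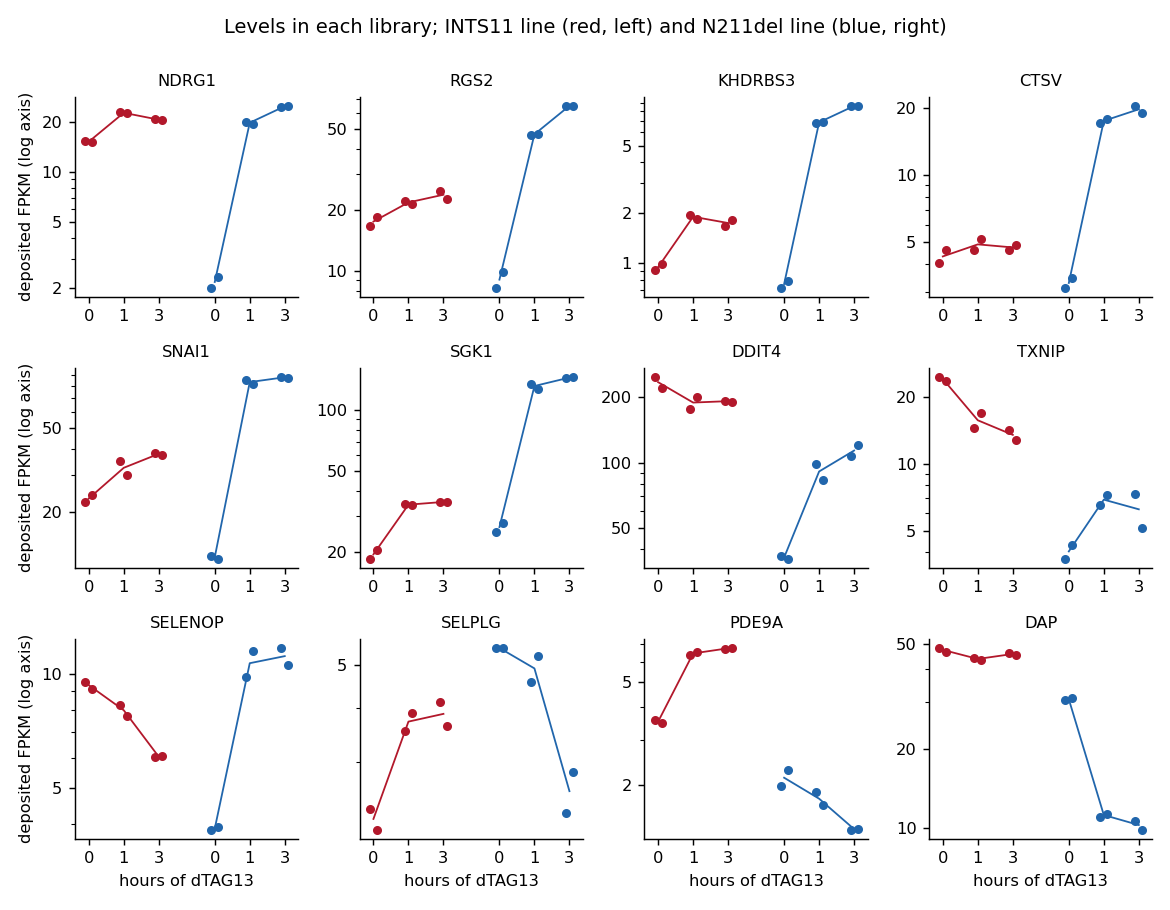
Deposited FPKM on log axes at 0, 1 and 3 h of dTAG13 for 12 genes, with the INTS11 line in red on the left and the N211del line in blue on the right of each panel. Points are libraries and lines join the means of 2. NDRG1, RGS2, KHDRBS3, CTSV, SNAI1 and SGK1 step up steeply by 1 h in the N211del line and little in the INTS11 line, whereas DAP drops in the N211del line.

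Opposite responses came in both directions, with 433 genes lower in the INTS11 line but higher in the N211del line and 146 the other way round. With each library centred the counts were 298 and 331, and with those replicate pairs averaged that did not differ detectably beyond the sampling noise they were 142 and 58. XPR1, the phosphate exporter gene, began at similar levels in both lines. It had 4.57 and 4.69 FPKM at 3 h against 7.87 and 7.47 at 0 h in the INTS11 line, and 11.1 and 11.2 at 3 h against 7.147 and 7.504 at 0 h in the N211del line. The difference was −1.32 ± 0.07 (adjusted p = 1.81e-06), and in the INTS11 line both 3 h libraries lay below both 0 h libraries, while the N211del line had the reverse order. COMMD1, which acts in copper handling and protein sorting and overlaps CCT4, had 3.13 and 3.18 FPKM at 3 h against 5.16 and 4.90 at 0 h in the INTS11 line. It had 9.87 and 9.57 FPKM at 3 h against 5.62 and 6.03 at 0 h in the N211del line, a difference of −1.39 ± 0.08.

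SELENOP, the gene of a selenium-carrying secreted protein, overlaps CCDC152. It had 6.02 and 6.05 FPKM at 3 h against 9.55 and 9.13 at 0 h in the INTS11 line, and 11.7 and 10.6 at 3 h against 3.87 and 3.92 at 0 h in the N211del line, a difference of −2.11 ± 0.11. TXNIP, an inhibitor of thioredoxin, fell in the INTS11 line to 14.2 and 12.8 FPKM, against 24.7 and 23.6 at 0 h. In the N211del line it rose to 7.35 and 5.14 FPKM, against 3.74 and 4.33 at 0 h. TMEM168 (−1.26 ± 0.06) and the interferon-stimulated gene IFIT1 (−1.45 ± 0.29), which overlaps LIPA, had the same pattern.

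In the other direction, PDE9A, a cyclic GMP phosphodiesterase gene, had 6.72 and 6.78 FPKM at 3 h against 3.57 and 3.47 at 0 h in the INTS11 line. The N211del line had 1.35 and 1.36 FPKM at 3 h against 1.99 and 2.29 at 0 h, and the difference was 1.54 ± 0.12 (adjusted p = 9.44e-06). SULT1C3, a sulfotransferase gene (1.45 ± 0.18), SPATA12 (1.39 ± 0.16), DENND6B (1.35 ± 0.25) and KCNJ11, a potassium channel gene (1.18 ± 0.24), also rose in the INTS11 line and fell in the N211del line. Centring left the calls of all 12 opposite genes named by rule, SELPLG included, in both lines with the same signs.

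At 4122 genes, 59.3% of those tested, the 95% interval of the difference lay within 1.5-fold in either direction. They include genes called in the difference and genes called in neither line's response, so the count is one of small differences and not of shared responses. Of 500 genes that both lines raised by at least 1.5-fold, 112 had such an interval, 143 were called lower in the INTS11 line and 51 higher. TRAF1, an adaptor of tumour necrosis factor receptors, had 18.6 and 19.3 FPKM at 3 h against 7.32 and 7.47 at 0 h in the INTS11 line, and 17.8 and 17.7 at 3 h against 6.87 and 7.46 at 0 h in the N211del line. Its difference was 0.05, with a 95% interval of −0.09 to 0.19. SHLD1, a subunit of the DNA repair complex shieldin, had a difference of 0.04 (interval −0.17 to 0.25) and the prostaglandin receptor gene PTGER2 one of −0.08 (−0.52 to 0.36). Under centring TRAF1 was called higher in the INTS11 line, at 0.19. SOCS1, a feedback inhibitor of cytokine signalling picked after its values were seen, rose to 41.1 and 41.6 FPKM against 5.56 and 5.84 at 0 h in the INTS11 line, and to 93.5 and 109 against 10.7 and 8.50 at 0 h in the N211del line. Its difference of −0.55 ± 0.14 (adjusted p = 0.00984) lost the call under centring, at adjusted p = 0.0721. Both lines lowered 8 genes by at least 1.5-fold, and 7 of them had an interval within 1.5-fold, such as NUCKS1, a chromatin-associated protein gene, at 0.07 (−0.05 to 0.19).

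The lines did not start alike. At 0 h 4862 genes (70.0%) differed between them, 2194 (31.6%) higher for INTS11 and 2668 (38.4%) lower. At 3 h 5357 genes (77.1%) differed, 1914 (27.5%) higher and 3443 (49.5%) lower. With each library centred, 2470 were higher and 2552 lower at 0 h, and 2753 were higher and 2666 lower at 3 h, so the surplus of lower genes at 3 h turned with the scaling. The genes with a response lower by at least 1 had a median 0 h difference of 0.36 and a median 3 h difference of −1.05, INTS11 line minus N211del line. For those with a response higher by as much the medians were −0.01 at 0 h and 1.40 at 3 h. Because the 0 h libraries enter both the starting level and the response, these values are descriptions. The part of the starting level in the difference of responses was not tested.

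Members of 21 gene lists were counted against the 35.8% of all tested genes called lower and the 15.2% called higher, and 20 lists had tested members. Immediate early genes, which encode factors induced within minutes of a stimulus, had the lowest median after hypoxia genes. Of 27 tested members, 17 were lower and 5 higher in the INTS11 line (14 and 6 with centring), and their median difference was −0.51. Their own responses were 18 higher and 5 lower for INTS11 and 22 higher and 3 lower for N211del. SGK1, a kinase gene of the glucocorticoid and serum response, had 35.3 and 35.3 FPKM at 3 h against 18.5 and 20.4 at 0 h in the INTS11 line, and 143 and 146 at 3 h against 25.1 and 27.9 at 0 h in the N211del line. The difference was −1.59 ± 0.08 (adjusted p = 1.43e-06). NR4A2, an orphan nuclear receptor gene, had 23.7 and 21.8 FPKM at 3 h against 7.15 and 8.49 at 0 h in the INTS11 line, and 34.2 and 31.5 at 3 h against 1.96 and 3.37 at 0 h in the N211del line, a difference of −2.09 ± 0.27. The AP-1 gene FOSB (−1.40) and the transcription factor gene KLF4 (−1.40) were lower as well.

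Of the EGR genes, zinc finger factors of the same class, EGR1, EGR2 and EGR3 were higher for INTS11 and EGR4 was not called (−0.53). EGR3 had 13.8 and 14.5 FPKM at 3 h against 3.49 and 3.44 at 0 h in the INTS11 line, and 5.10 and 6.57 at 3 h against 3.39 and 3.53 at 0 h in the N211del line, a difference of 1.27 ± 0.14. EGR1 fell in both lines, to 498 and 504 FPKM against 605 and 590 at 0 h in the INTS11 line, and to 177 and 171 against 321 and 346 at 0 h in the N211del line, a difference of 0.68 ± 0.05. EGR2 differed by 0.65 ± 0.23, and JUN (0.27) and CCN1 (0.15) were the other members called higher. In batch 1, 16 of 25 immediate early genes tested were lower. There JUN was called in the other direction, at −0.34 (adjusted p = 0.0489), beside a median of −0.26 for all genes. EGR1 (−0.08), EGR3 (0.50) and CCN1 (−0.11) were not called there and lay above that median. The number called higher was 2 without either INTS11 3 h replicate, N211del 0 h replicate 2 or N211del 3 h replicate 2, and 3 without INTS11 0 h replicate 2 or N211del 0 h replicate 1.

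Hypoxia and glycolysis genes had the lowest median of all lists, −0.66. Of 17 tested, 14 were lower and 1 higher (12 and 2 with centring), and 16 were higher in the N211del line. Beside NDRG1, EGLN3, a prolyl hydroxylase that marks HIF for destruction, had 23.0 and 21.4 FPKM at 3 h against 14.4 and 13.6 at 0 h in the INTS11 line, and 39.2 and 39.2 at 3 h against 9.05 and 9.27 at 0 h in the N211del line. Its difference was −1.43 ± 0.06. PFKFB3, a regulator of glycolysis (−1.42), and the vasodilator peptide gene ADM (−1.18) were also lower, and PKM, the pyruvate kinase gene, was the member called higher (0.19).

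Signalling feedback and developmental target lists leaned the same way, but the lists share members, so their counts are not independent. DUSP4, DUSP5 and DUSP6 are MAPK feedback and immediate early members, and CCN2 and JUNB are TGF-beta and immediate early members. MYC is in the Wnt and immediate early lists, and BAMBI in the Wnt and TGF-beta lists. Of 12 TGF-beta and BMP target genes 7 were lower and 1 higher (7 and 3 with centring), with a median of −0.45. SNAI1, a repressor of epithelial genes, had 38.4 and 37.4 FPKM at 3 h against 22.4 and 24.1 at 0 h in the INTS11 line, and 88.1 and 87.1 at 3 h against 12.41 and 12.02 at 0 h in the N211del line, a difference of −2.13 ± 0.09. SMAD6, an inhibitor of BMP signalling, had a difference of −1.53 ± 0.22. Among 15 MAPK feedback genes 9 were lower and 1 higher (7 and 3 with centring), with HBEGF, an EGF receptor ligand gene, at −1.58 ± 0.07 and the phosphatase gene DUSP4 at −0.93 ± 0.07. Of 15 Wnt target genes 9 were lower and 2 higher (7 and 3), led by PROX1, a transcription factor gene (−1.16 ± 0.14), and NKD1, a Wnt inhibitor gene (−1.14 ± 0.07).

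Stress and immune lists had medians of −0.35 to −0.14. IRF1, called lower, is in both the NF-kB and the interferon list. Of 15 p53 target genes 11 were lower and 1 higher (8 and 2 with centring, median −0.35), including the BH3-only gene PMAIP1 (−0.84 ± 0.10) and the kinase gene PLK2 (−0.78 ± 0.05). In batch 1, 11 of the 15 were lower and 0 higher, PLK2 was at −0.88, and PMAIP1 was not called (0.02, adjusted p = 0.905). Among 12 NF-kB target genes 5 were lower and 2 higher (4 and 3; median −0.19), with SOD2, the mitochondrial superoxide dismutase gene, at −0.79 ± 0.07. Of 26 interferon-stimulated genes 10 were lower and 4 higher (8 and 6; median −0.27). OASL, of the antiviral OAS family, was lower (−1.40 ± 0.19), whereas MX1, an antiviral GTPase gene, had 3.37 and 3.59 FPKM at 3 h against 1.25 and 1.23 at 0 h in the INTS11 line, and 2.20 and 2.26 at 3 h against 1.296 and 1.325 at 0 h in the N211del line. Its difference was 0.69 ± 0.11. Of 19 heat shock and chaperone genes 10 were lower and 1 higher, which became 5 and 5 with centring, and 6 were lower without INTS11 0 h replicate 1, INTS11 3 h replicate 2 or N211del 3 h replicate 1.

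ATF4 and unfolded protein response genes were lower at 11 of 19 members and higher at 2 (8 and 4 with centring; median −0.31). DDIT4, an inhibitor of mTORC1 signalling, had 193 and 191 FPKM at 3 h against 249 and 221 at 0 h in the INTS11 line. The N211del line had 107 and 121 FPKM at 3 h against 37.0 and 36.1 at 0 h. The INTS11 line was higher at both times, and the difference of responses was −1.92 ± 0.14 (adjusted p = 8.01e-06). HERPUD1, which acts in the removal of misfolded proteins, had the same form, with 97.1 and 92.7 FPKM at 3 h against 117 and 111 at 0 h in the INTS11 line, and 73.6 and 77.6 at 3 h against 36.3 and 35.1 at 0 h in the N211del line. Cholesterol genes were lower at 7 of 13 members and higher at 3 (7 and 3 with centring; median −0.38). In batch 1, 3 of 13 were lower and 2 higher, and the median of −0.11 lay above the −0.26 of all genes. INSIG1, which retains the sterol sensor in the endoplasmic reticulum, had 169 and 166 FPKM at 3 h against 237 and 227 at 0 h in the INTS11 line, and 101 and 99.6 at 3 h against 64.4 and 69.6 at 0 h in the N211del line, a difference of −1.05 ± 0.06.

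S phase genes had the only positive median of the lists as deposited. Of 23 tested, 10 were higher for INTS11 and 3 lower (15 and 1 with centring), with a median of 0.07 beside −0.11 for all genes. In batch 1, 2 of 23 were higher and 5 lower, with a median of −0.14 beside −0.26 for all genes, E2F1 was at −0.07 and MCM5 at 0.21, neither called, and E2F2 (0.41) and E2F3 (0.33) were called higher. E2F3, a cell cycle transcription factor gene, had 49.4 and 49.5 FPKM at 3 h against 37.8 and 36.7 at 0 h in the INTS11 line, and 38.9 and 38.2 at 3 h against 46.1 and 49.0 at 0 h in the N211del line. The difference was 0.71 ± 0.06 (adjusted p = 1.19e-05), and the order of the lines turned between the times. E2F2 (0.67 ± 0.08), E2F1 (0.65 ± 0.17) and the helicase subunit gene MCM5 (0.50 ± 0.05) were higher too, and POLE2, a polymerase epsilon subunit gene (−0.49), was lower. The number of S phase members called lower was 1 without replicate 1 of either INTS11 group, N211del 0 h replicate 1 or N211del 3 h replicate 2. Mitotic genes were lower at 10 of 22 and higher at 1, which became 5 and 6 with centring, with the kinetochore motor gene CENPE lowest at −0.63 ± 0.07.

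**Figure D3:**
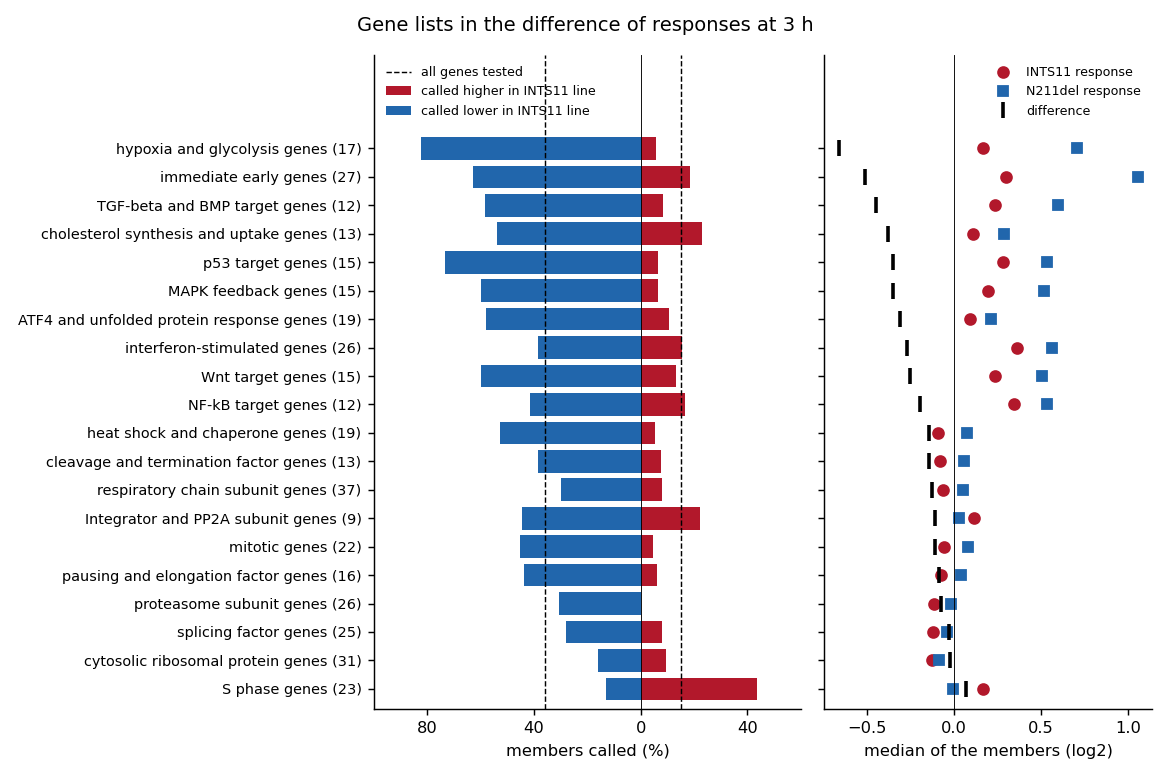
Left, percent of the tested members of each list called lower (blue) or higher (red) in the INTS11 line, with dashed lines at the 35.8% and 15.2% of all genes; right, median of the members' responses in the INTS11 line (circles) and in the N211del line (squares) and median difference (ticks). Numbers of members are in brackets, and hypoxia genes are at the top and S phase genes at the bottom.

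Genes of the transcription machinery had medians near that of all genes. Of 9 Integrator and PP2A subunit genes 4 were lower and 2 higher (2 and 2 with centring), with a median of −0.11. INTS10 had 18.2 and 17.1 FPKM at 3 h against 19.2 and 19.6 at 0 h in the INTS11 line, and 36.4 and 34.9 at 3 h against 25.3 and 27.3 at 0 h in the N211del line, a difference of −0.58 ± 0.07. INTS1 had a difference of 0.42 ± 0.08. Of 16 pausing and elongation factor genes 7 were lower and 1 higher, which became 4 and 7 with centring. HEXIM1, an inhibitor of the pause-release kinase P-TEFb, had 206 and 213 FPKM at 3 h against 122 and 121 at 0 h in the INTS11 line, and 380 and 385 at 3 h against 131 and 134 at 0 h in the N211del line. The difference was −0.75 ± 0.04 (adjusted p = 1.56e-06), and CTR9, a subunit of the elongation complex PAF1, had one of −0.91 ± 0.07.

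Cleavage and termination factor genes were lower at 5 of 13 members and higher at 1, which became 1 and 3 with centring. Between 1 and 3 were lower without any 1 of 6 libraries, all but INTS11 0 h replicate 2 and N211del 0 h replicate 2. The higher one was ZC3H4, part of a complex that ends unproductive transcription. It had 33.6 and 32.9 FPKM at 3 h against 15.02 and 13.20 at 0 h in the INTS11 line, and 32.2 and 32.2 at 3 h against 21.9 and 22.3 at 0 h in the N211del line. The lines had close levels at 3 h from unequal starts, and the difference was 0.69 ± 0.08 (adjusted p = 9.24e-05).

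Housekeeping lists had medians of −0.12 to −0.02. Cytosolic ribosomal protein genes were lower at 5 of 31 members and higher at 3. They were 0 lower and 13 higher with centring, and 13 lower and 1 higher after a correction for gene length, so no direction is given for them. Proteasome subunit genes were lower at 8 of 26 and higher at none (4 and 6 with centring), with PSMC6 at −0.61 ± 0.07. Without INTS11 0 h replicate 1 or INTS11 3 h replicate 2, 5 were lower. Splicing factor genes were lower at 7 of 25 and higher at 2 (4 and 12 with centring), with SF3B1 at −0.45 ± 0.07. Of 37 respiratory chain subunit genes 11 were lower and 3 higher (9 and 10 with centring). NDUFS4, a complex I subunit gene, had 6.70 and 6.60 FPKM at 3 h against 11.8 and 11.3 at 0 h in the INTS11 line, and 9.68 and 10.1 at 3 h against 9.24 and 9.78 at 0 h in the N211del line, where the groups were not told apart (adjusted p = 0.35). Its difference was −0.84 ± 0.07. Counts of 1 to 3 members moved by over 1.5 times in many of the 8 fits that left out a library, and each library did so for at least 1 list. Replication-dependent histone genes were not analysed here.

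Promoters of SGK1, DDIT4 and ZC3H4 are shown because SGK1 was raised in both lines and less so for INTS11, DDIT4 fell for INTS11 and rose for N211del, and ZC3H4 had a higher response for INTS11. Each runs from 250 bases before to 50 after the start that RefSeq gives on GRCh38.p14, 5′ to 3′ on the gene's strand. Capitals mark matches on either strand to TATAAA (the TATA box), ACGTG (the core of the hypoxia response element) or TGACGTCA (the cyclic AMP response element). None of these motifs contains another.
SGK1, chr6:134318063-134318362, minus strand: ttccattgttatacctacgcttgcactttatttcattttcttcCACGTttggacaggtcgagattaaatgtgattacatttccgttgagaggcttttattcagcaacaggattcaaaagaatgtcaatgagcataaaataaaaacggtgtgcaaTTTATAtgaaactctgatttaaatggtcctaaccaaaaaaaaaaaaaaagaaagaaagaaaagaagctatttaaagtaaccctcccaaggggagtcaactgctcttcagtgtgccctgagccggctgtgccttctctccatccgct
DDIT4, chr10:72273674-72273973, plus strand: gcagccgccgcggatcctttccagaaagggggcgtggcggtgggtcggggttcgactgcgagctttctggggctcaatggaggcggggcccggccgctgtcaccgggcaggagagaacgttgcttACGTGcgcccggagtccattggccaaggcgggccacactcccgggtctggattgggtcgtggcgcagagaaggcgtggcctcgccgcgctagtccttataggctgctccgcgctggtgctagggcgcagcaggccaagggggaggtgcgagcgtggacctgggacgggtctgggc
ZC3H4, chr19:47113727-47114026, minus strand: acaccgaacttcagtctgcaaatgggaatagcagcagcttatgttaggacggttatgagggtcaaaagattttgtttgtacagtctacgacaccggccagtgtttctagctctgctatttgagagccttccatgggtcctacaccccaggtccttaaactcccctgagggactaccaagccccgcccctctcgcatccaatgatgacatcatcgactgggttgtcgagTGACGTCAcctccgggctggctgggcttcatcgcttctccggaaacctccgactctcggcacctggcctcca
Shares of promoters with each motif were counted in RefSeq promoters of the same length. TATAAA was in 9.71% of 175 promoters of genes lower by at least 1, in 9.30% of 86 promoters of genes higher by as much and in 5.56% of 5615 promoters of all tested genes. ACGTG was in 24.0%, 19.8% and 25.8% of the same sets in the same order, and TGACGTCA in 2.86%, 1.16% and 3.10%. A match is a description of these letters and not of a bound site.

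Gene length ran with the difference. Tested genes were split into 4 bins by the length recovered from the deposited values. From shortest to longest, the share called lower in the INTS11 line was 21.4%, 27.1%, 40.1% and 54.5%, and the share called higher was 17.3%, 16.9%, 14.5% and 11.9%. The median difference was −0.02, −0.04, −0.14 and −0.24. Across genes, length and the response had a Spearman rho of −0.305 for INTS11 and −0.051 for N211del, a description only, since all genes share the same libraries. After each library was corrected for its trend with length, 2429 genes were lower and 1053 higher. These were not all the same genes, as 2156 of the 2487 lower and 870 of the 1053 higher genes stayed called.

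**Figure D4:**
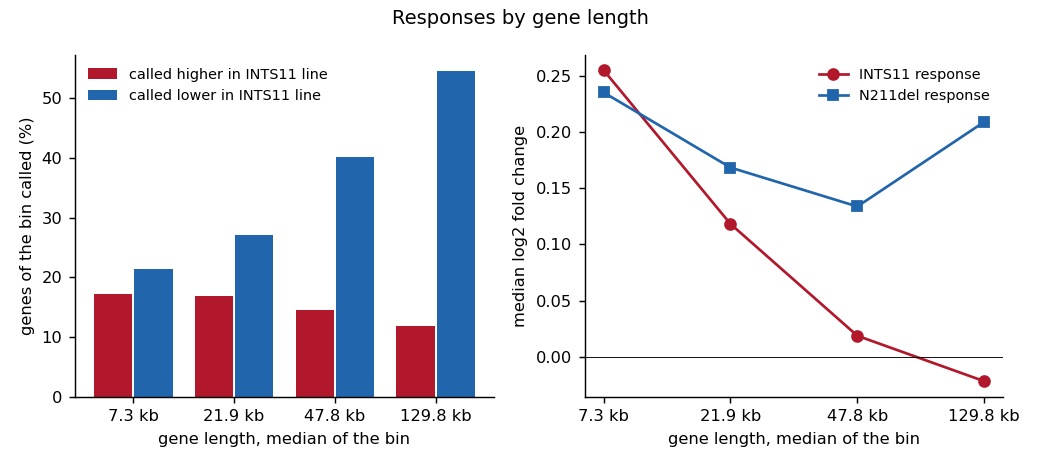
Left, percent of genes called higher (red) or lower (blue) in the INTS11 line in each of 4 bins of gene length; right, median log2 response of the same bins in the INTS11 line (circles) and the N211del line (squares). The share called lower is 54.5% in the longest bin and 21.4% in the shortest.

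The lines already differed widely at 1 h. The difference of responses at 1 h was called at 3375 genes (48.6%), 2733 (39.3%) lower and 642 (9.24%) higher, with a median of −0.16, and it shares the 0 h libraries with the 3 h result. With each library centred 1553 genes were lower and 1792 higher, so the direction of the surplus turned with the scaling. NDRG1 differed by −2.56 at 1 h and −3.02 at 3 h, SNAI1 by −2.28 and −2.13, SGK1 by −1.49 and −1.59, and DAP by 1.34 and 1.53. The change of the difference between 1 and 3 h was called at 399 genes (5.74%), 301 (4.33%) higher and 98 (1.41%) lower. With each library centred 338 were higher and 428 lower. With replicate pairs averaged where they did not differ detectably, limma called 0 genes, and 920 had an unadjusted p under 0.05, so every late change rests on counting both replicates of those pairs. Leaving out any 1 library gave 119 (without INTS11 3 h replicate 1) to 258 such genes.

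The largest late changes ran in both directions. TMEM45B, a membrane protein gene, changed little in the INTS11 line (log2 −0.29 at 3 h), with 14.6 and 14.6, 12.3 and 12.2, and 12.4 and 11.5 FPKM at 0, 1 and 3 h. In the N211del line it had 8.34 and 8.84, 7.72 and 6.67, and 2.85 and 2.91 FPKM at the same times, so that most of its loss came after 1 h, and the late change of the difference was 1.25 ± 0.10. PRR15L (1.23) and the cell adhesion gene NECTIN4 (1.25) had late changes of similar size. CXCL8, a neutrophil chemokine gene, had 113 and 116, 113 and 96.0, and 89.0 and 83.4 FPKM at 0, 1 and 3 h in the INTS11 line. Its lowest values in the N211del line were at 1 h, with 121 and 119, 45.9 and 67.5, and 114 and 116 FPKM, and its late change was −1.32; the 3 h difference itself was not called (−0.34, adjusted p = 0.19). RBM24 (−1.48) and DLX3 (−1.41) had the other large negative late changes.

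Batch 1 gave the same contrast in other libraries, against DMSO and not against 0 h. There, 3190 of 6579 genes were called (48.5%), 2874 lower (43.7%) and 316 higher (4.80%), with a median of −0.26. The number called varied widely with the library left out. It rose without N211del dTAG13 replicate 1 and fell without any other library of this contrast. That N211del pair had the largest chi-square per gene of all groups, 1.73. At 1.5-fold or more 13.1% were lower and 2.69% higher. Over 6569 genes tested in both batches the differences correlated across genes with Pearson r = 0.684 and Spearman rho = 0.639, a description over genes of the same libraries. Of 2458 genes lower in the time course and 2873 lower in batch 1, 1840 were shared, 74.9% and 64.0% of the lists. Of 1011 and 316 genes higher, 194 were shared, 19.2% and 61.4%. Of the 1011, 536 had the same sign in batch 1 and 87.4% lay on the same side of the batch 1 median of −0.26. Of the 2458 lower genes, 2370 had the same sign in batch 1 and 79.7% lay on the same side of that median. With each library centred, batch 1 gave 992 genes lower and 1237 higher, so its surplus of lower genes also turned with the scaling. At 1.5-fold or more, 465 lower genes were shared (63.4% of 734 and 54.2% of 858) and 85 higher genes (31.1% of 273 and 48.0% of 177). As deposited, 102 genes higher in the time course and 7 genes lower in it were called in the opposite direction in batch 1.

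Single genes showed both outcomes. KHDRBS3 differed by −2.55 in the time course and −2.60 in batch 1, RGS2 by −2.40 and −2.56, CTSV by −2.42 and −1.89, SGK1 by −1.59 and −1.45, SELPLG by 1.84 and 1.27, and SULT1C3 by 1.45 and 1.91. In batch 1 DAP fell in both lines, to 19.8 and 19.8 FPKM with dTAG13 against 25.5 and 28.7 with DMSO in the INTS11 line, and to 8.37 and 10.0 with dTAG13 against 25.5 and 24.9 with DMSO in the N211del line, a difference of 1.00. DDIT4 was called in the time course alone, with differences of −1.92 there and 0.19 in batch 1 (adjusted p = 0.19). With DMSO in batch 1 it had 59.2 and 62.5 FPKM for INTS11 and 397 and 358 for N211del, the reverse of the order at 0 h in the time course. INSIG1 differed by −1.05 in the time course and −0.05 in batch 1. TXNIP was called in both and turned, −1.43 in the time course and 0.52 in batch 1 (adjusted p = 0.0358). The labels do not say what the batches were, so the vehicle and whatever else differed between them cannot be told apart in that comparison.

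**Figure D5:**
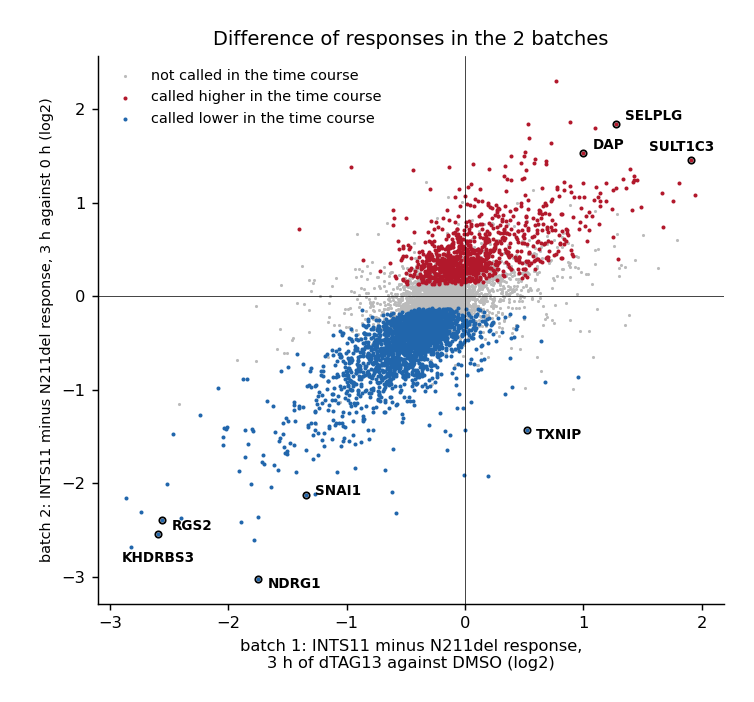
Difference of responses, INTS11 line minus N211del line, in the time course of batch 2 (vertical axis) and against DMSO in batch 1 (horizontal axis), both in log2. Points are genes tested in both batches, coloured by the call in the time course; KHDRBS3, RGS2 and NDRG1 are low in both, SELPLG and DAP high in both, and TXNIP is low in the time course and above 0 in batch 1.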

How the data were processed

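TT-seq libraries of DLD1 cells were measured in 12 groups of 2, and the comparison used the 8 libraries of 4 groups in the time course. The deposited values are FPKM per gene, made by the authors; per the submitters' processing notes the tools named were STAR 2.7.5c, DESeq2 1.26.0, Trim Galore 0.6.6, Picard 2.23.3 and SAMtools 1.9, with hg19 and mm10 as builds. The labels do not record how the FPKM were scaled or whether strand entered the counting, which makes overlapping genes uncertain. Nearly all deposited FPKM of batch 2 were whole numbers, within 0.02 units, times a library factor over gene length. Those of batch 1 were whole numbers over gene length without such a factor, so the batches were scaled differently. The batch 2 units numbered 8710125 to 10806744 per library of the comparison, with medians of 572 to 775 per gene over the batch.

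The test was limma 3.58.1 in R 4.3.3, with trended, robust empirical Bayes moderation, on log2(FPKM + 0.1). All 12 libraries of the batch entered 1 fit, with 1 mean per group and genes with a mean of at least 0.1. A gene was called at a Benjamini-Hochberg adjusted p under 0.05, and every adjusted p in the text comes from this test. Fold changes on this scale understate changes of low genes. Batch 1 was fitted alone in the same way. Of 7223 gene symbols 7215 matched RefSeq. Python 3.11.15 was used for figures (matplotlib 3.10.9) and counts (pandas 2.3.3, scipy 1.17.1, numpy 2.4.6).

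Named genes had a mean of at least 1 FPKM and no non-coding or uncharacterised name. They were the 10 called genes with the largest difference in each direction and no overlap of library pairings between lines. That lack of overlap held for all 1053 higher and 2487 lower genes, so it removed none. The 6 opposite responders in each direction with the largest smaller change were added. So were up to 2 called members per list with the largest absolute difference, in either direction. The genes most alike or with the largest late changes were also named. Others are further list members, named for list counts of 5 or fewer, for contrast within a list or as added examples. The rest are those that the text says were picked after their values were seen. The comparison, its genes and the lists were chosen with earlier results of these data known. On simulated data for the 3 h difference over 6950 genes, 50 genes were altered at each size. At 1.25-fold 19 were recovered, at 1.5-fold 40, at 2-fold 44 and at 3-fold 47, and 9 unaltered genes were called. Alternatives were the pseudocount, the filter, centring, a length correction, a replicate block, fewer libraries, averaged pairs, voom on the whole-number units and leaving out each library.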

Additional observations from a re-analysis of the deposited data

Results flagged for a closer look

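Among the genes that responded in opposite directions in the INTS11 line and the N211del line, 12 were named by rule, as those with the largest smaller change. Each response was called on its own, and the test of the difference itself passed for each (limma, 2 libraries per group). The difference also passed for all 433 and all 146 genes with opposite calls in the same fit, so it adds no further support. INSIG1, HERPUD1, DDIT4, INTS10, E2F3, MCM5 and INTS1 also had both responses called in opposite directions. Higher in the INTS11 line and lower in the N211del line were SELPLG, with a log2 difference of 1.84, PDE9A (1.54), SULT1C3 (1.45), SPATA12 (1.39), DENND6B (1.35) and KCNJ11 (1.18). SPATA12 overlaps ARHGEF3. Lower in the INTS11 line and higher in the N211del line were SELENOP (−2.11), IFIT1 (−1.45), TXNIP (−1.43), COMMD1 (−1.39), XPR1 (−1.32) and TMEM168 (−1.26). In batch 1 the differences called in the same direction were 1.27 for SELPLG, 1.91 for SULT1C3, −1.27 for SELENOP, −1.15 for COMMD1, −0.85 for XPR1 and −0.54 for TMEM168. TXNIP was called in the other direction there, at 0.52. Those not called were 0.51 for PDE9A, 0.34 for SPATA12, 0.51 for DENND6B, 0.88 for KCNJ11 and −0.17 for IFIT1 (limma, adjusted p = 0.515).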

How the results depend on the processing

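No gene called in the 3 h difference was called in the opposite direction under any alternative run. Signs were checked for the named genes only, and no called value of these changed sign. Centring each library gave 1993 genes higher, with 509 higher and 494 lower at 1.5-fold or more and a median of 0.033 for the 3 h difference; 2148 higher and 2436 lower for the N211del response; 1792 higher and 1553 lower for the 1 h difference; 766 called, 428 of them lower, for the late change; and 1237 higher and 992 lower for batch 1. In 3 of the 4 groups of the comparison the replicates did not differ detectably beyond the sampling noise. With such pairs averaged to 1 sample, 2242 genes were called in the 3 h difference (599 higher, 1643 lower), 2265 in the INTS11 response (1615 higher, 650 lower), 1336 in batch 1 (181 higher, 1155 lower) and 0 in the late change (0 higher, 0 lower), where limma gave 920 genes at an unadjusted p under 0.05. Fewer samples entered that fit. For the late change voom on the whole-number units gave 1029 genes (701 higher, 328 lower), and the cause of that and of the centred counts was not tested. Leaving out each library gave 119 to 258 genes for the late change, 76 to 170 higher and 40 to 88 lower, and 2970 to 3376 for the 3 h difference.

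No pairing by replicate number was seen, as deviations of same-numbered libraries correlated at −0.079 to 0.042 over 15 pairs of groups. Those deviations were largely sampling noise in most groups of the comparison, so they cannot exclude a pairing. With a replicate block the 3 h difference had 1036 genes higher and 2429 lower, of which 996 and 2401 were also called without it. Median units of 572 to 775 per gene leave low genes the least precise.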

Other observations

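Several genes were called in the 3 h difference and in batch 1 with opposite signs and a size of at least 0.5 on the log2 scale in each, chosen after their values were seen. These are values as deposited, where the median of all genes was −0.11 in the time course and −0.26 in batch 1. Calls with centring are not given for these genes. The differences in the time course and in batch 1 were 0.72 and −1.41 for SOX7, −0.92 and 0.68 for LDLRAD1, 0.76 and −0.61 for RCBTB2, 0.84 and −0.60 for ARMC5, 0.59 and −0.56 for SLC4A3, 0.53 and −0.53 for FRMD3, and 0.50 and −0.56 for ZMYND19. SOX7 encodes a transcription factor of endothelial development, and FRMD3 a protein that links the membrane to the cytoskeleton.

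Starting levels of stress and sterol genes differed between the lines at 0 h of the time course, by 2.68 for DDIT4, 2.55 for TXNIP, 1.79 for INSIG1 and 1.67 for HERPUD1 (log2, INTS11 line minus N211del line). KHDRBS3 (0.30), CTSV (0.38) and MARCHF3 (0.08) began closer together.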
